A study of Homo sapiens with 22 samples.

Results

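Binding of the estrogen receptor alpha (ESR1) to the genome was compared between receptors with and without the D538G substitution when both had been given estradiol (E2), the natural hormone of the receptor. The comparison takes the peak lists whose titles name E2, which are 10 of the 20 lists and of the 22 samples of the series: 6 lists from D538G clones and 4 from wild-type clones. All came from Ishikawa cells, a line from an endometrioid adenocarcinoma, in which a FLAG tag on ESR1 let an anti-FLAG antibody pull down the receptor with its DNA (ChIP-seq). The cells of every group had been kept without hormone for at least 5 days before induction. The E2 groups then received 10 nM E2 for 1 h, and the groups that serve here as a further readout received 0.1% DMSO, the solvent, for the same time.

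Wild type stands for 2 clones and D538G for 3, each with replicates numbered 1 and 2, so a difference between genotypes is also a difference between 2 and 3 clonal lines, and the 2 cannot be told apart. The labels do not say whether the replicates of a clone were separate cultures. The p-values below measure the spread between libraries, part of which may be technical. Genotype was the grouping of all tests, and the 2 input samples were not analysed here.

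ESR1 is a nuclear receptor that binds E2 in a pocket of its ligand-binding domain. On binding the hormone, a helix folds over the pocket and opens a surface for coactivators, and the receptor is held at estrogen response elements, many of them far from promoters. The D538G substitution lies beside that helix and is known from hormone-resistant breast cancers and from endometrial cancers as a change that favours the active form without hormone. With E2 present on both sides, the comparison asks which sites the mutant receptor prefers when the wild-type receptor is active as well.

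The E2 lists differed widely in length within each genotype. Wild-type clone 1 had 8206 peaks in replicate 1 and 35344 in replicate 2, and wild-type clone 2 had 5757 and 31108. D538G clone 1 had 12566 and 6542 peaks, clone 2 had 21869 and 1977, and clone 3 had 19832 and 49223. The mean log10 peak number was 4.09 ± 0.485 (SD, n = 6) in D538G and 4.18 ± 0.40 (SD, n = 4) in wild type. The difference of -0.0888 was well inside that spread (exact permutation test over 210 arrangements of the libraries, two-sided, p = 0.776, the same after adjustment over 3 library-level tests). It was 0.408 within replicate number 1 and -0.586 within replicate number 2 (exact permutation p = 0.1 and 0.4, where 0.1 is the smallest possible), and -0.139 without that of D538G clone 2 replicate 1 (p = 0.683 by the same exact test). It changed sign without wild-type clone 1 replicate 2 (0.0343), wild-type clone 2 replicate 2 (0.0158) or D538G clone 2 replicate 2 (0.0700). Read depth is not given in the lists, so whether a list is short through fewer reads or fewer bound sites cannot be told apart. For this reason each comparison was made on whole lists and again on lists held to their 1977 strongest peaks, the length of the shortest.

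The peak names of 1 list went against its label. The peak names that the authors wrote into the list labelled D538G clone 2 replicate 1 with E2 hold the word Ctl, which in the other clones stands only in the names of DMSO lists, and they also hold the word Input. Those of D538G clone 1 replicate 1 hold Input too. No other E2 list has either word. The list was kept under its label and is called the Ctl-named list below, and the counts and tests are also given without it. Its peak number of 21869 lay inside the range of the other 5 D538G E2 lists. It also lay inside that of the D538G DMSO lists (1621 to 54903), so the peak number cannot decide the label.

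Both receptors shared a core of sites. The 20 lists merged, at an overlap of at least 1 bp, into 93612 regions, of which 62684 held a peak in at least 1 E2 list. Of these, 26955 regions (43.0%) were in exactly 1 E2 list and 1112 (1.77%) were in all 10. The regions in all 10 lists were wide, with a median of 1498 bp against 507 bp for regions in at least 1. They made up 2.53% to 59.2% of the regions of a list, a share that follows list length. At equal length, 285 regions were in all 10 lists, and the 1112 regions made up 27.4% to 44.6% of the regions of a wild-type list and 39.3% to 59.2% of those of a D538G list. The 59.2% is that of D538G clone 2 replicate 2, the shortest list, which equal length keeps whole. It holds every core region by definition, so its share is fixed by its length. The next highest D538G share was 47.5%.

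The core regions of highest mean rank over the 10 lists serve as a reference, and their high rank is fixed by that choice. Ranks were taken by the signal value in column 7 of the lists, among the 1112 regions and within each list, and are given as percentiles with 100 the strongest. Positions are those of the build hg19. The first of these regions was chr1:10811172-10813750, with percentiles of 94.4, 92.9, 79.3 and 73.9 in wild type (clone 1 replicates 1 and 2, then clone 2) and of lowest 91, median 98.3 and highest 99.3 in D538G. The 2 groups overlapped there (limma, Benjamini-Hochberg adjusted p = 0.105). The next were chr22:28192764-28198635 and chrX:39753480-39755406. At the former the wild-type mean percentile was 91.4 ± 5.85 (SD, n = 4) and that of D538G 89.9 ± 9.26 (SD, n = 6). At the latter they were 90.9 ± 5.55 and 89.1 ± 11.1. All 3 of these regions also had a peak in each of the 6 D538G DMSO lists and in 2 wild-type DMSO lists, those of replicate 2.

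At full list length the presence of sites separated the genotypes in few regions, and the balance between the 2 directions depended on the shortest list. Among 35729 regions with a peak in at least 2 E2 lists, no region passed Fisher's exact test after Benjamini-Hochberg adjustment (smallest adjusted p = 1). At an unadjusted p under 0.05, 116 regions had a peak more often in D538G (0.325% of those tested) and 318 less often (0.89%), so 26.7% of the 434 were in the first direction. The 434 are a smaller share of the 35729 than the threshold of 0.05, so calls of this number can arise without any difference between genotypes. The 2 sets are called gained and lost below for short, although no member passed the adjusted test. Complete separation was rarer still: 9 regions had a peak in all 6 D538G lists and in no wild-type list, and 52 had one in all 4 wild-type lists and in no D538G list. These had the smallest p that the design allows, 0.00476. For any region to pass the adjusted test, 9.52% of those tested would have had to reach that p, and 61 regions did. That no region passed therefore does not show that no site differs.

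**Figure D1:**
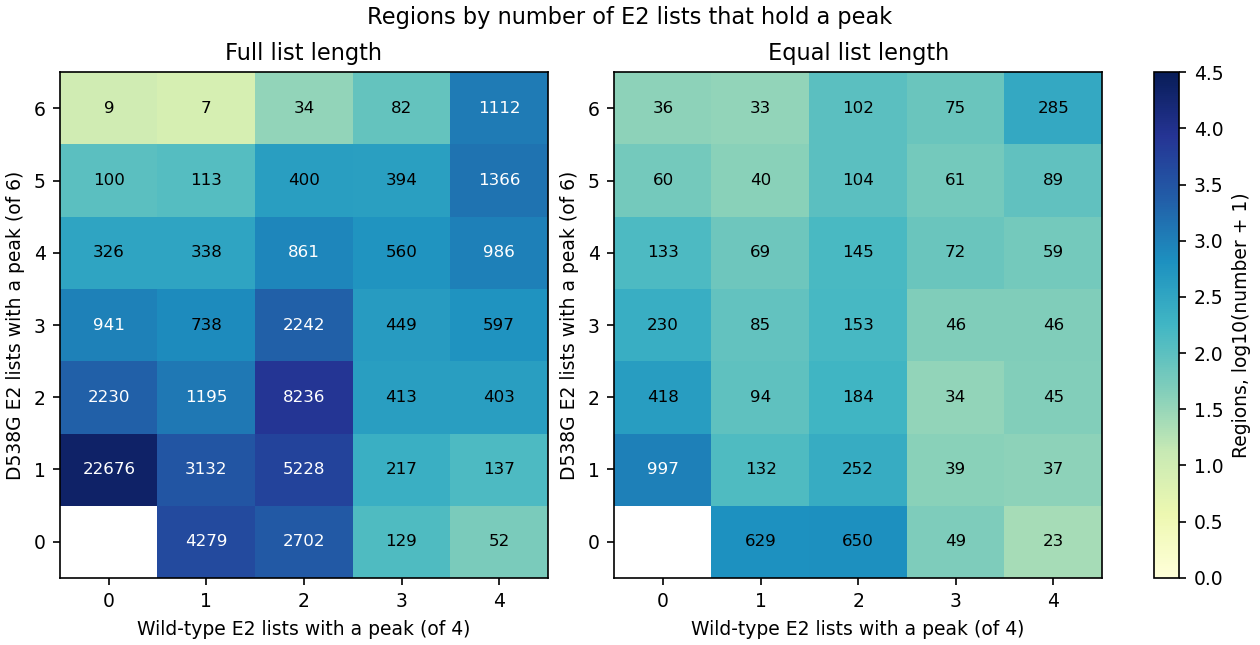
Number of regions by how many of the 6 D538G E2 lists (vertical) and the 4 wild-type E2 lists (horizontal) hold a peak, at full length on the left and at the 1977 strongest peaks per list on the right, with colour on a log10 scale and regions in no E2 list left blank. The largest cell at full length is the 22676 regions of a single D538G list, and the corner of all 10 lists holds 1112 regions at full and 285 at equal length.

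The sets called gained and lost differed in where they stood in the lists. In the D538G lists that held them, the 116 gained regions had median percentiles of 41.2 to 87.4 within the whole list, whereas the 318 lost regions had medians of 32.5 to 40.99 in the wild-type lists. The lost regions thus lay below the middle of the wild-type lists, and they were narrow (median 451.5 bp against 820.5 bp for the gained and 728 bp for all tested). The shortest list, D538G clone 2 replicate 2, held 26 of the 116 gained regions, against 109 to 116 in the other 5 D538G lists.

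Leaving out single lists moved these counts by more than 1.5 times. Without D538G clone 2 replicate 2, the shortest list, there were 532 gains and 320 losses, so the balance turned to gain. In each of the other 9 cases losses outnumbered gains. Gains came to 292 without D538G clone 1 replicate 2, 234 without D538G clone 3 replicate 2 and 192 without wild-type clone 1 replicate 2. Losses came to 829 without D538G clone 3 replicate 1 and 669 without D538G clone 1 replicate 1. Leaving out the Ctl-named list gave 168 gains and 344 losses, which included all 116 and all 318. Within a replicate number (3 D538G lists against 2) no unadjusted p could fall under 0.05, and both counts were 0.

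Of the 9 regions found with every D538G list and no wild-type list, 5 are described by the strength of their peaks. The first, chr9:138270156-138273124, stood at percentiles of 97.7, 98.2, 99.9, 80.4, 99.97 and 100 of the whole D538G lists (clone 1 replicates 1 and 2, then clones 2 and 3). Its lowest value was in the shortest list, and in the other 5 it lay among the strongest peaks. The next regions were chr2:134250266-134251284, chr2:11628036-11629902, chr9:101639234-101640142 and chr6:10591409-10592554. Their percentiles were 46.1 to 99.6, 34.9 to 98.2, 14.9 to 97.8 and 13.5 to 98.7. The first 4 also had a peak in all 6 D538G DMSO lists and the last in 4 of them, and none had one in a wild-type DMSO list. Each kept the same Fisher p (0.00476 unadjusted, 1 adjusted).

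The 5 strongest of the 52 regions with the reverse pattern ranked between percentiles 36.2 and 94.4 of the whole wild-type lists. chr13:27050121-27050701 stood at percentiles of 92.8 and 94.4 for clone 1, replicates 1 and 2, and 70 and 90.6 for clone 2. chr4:4581079-4581734 stood at 65.1, 67.2, 78 and 89.3 in the same order, and chr3:79989019-79989743 at 84.8, 68.7, 67.5 and 76.8. The other two, chr18:3639381-3640116 and chr12:98885925-98886707, had values of 54.6, 77.1, 66.6 and 83.2 and of 56.4, 85.2, 36.2 and 68.5. No wild-type DMSO list held any of the 5, and the D538G DMSO lists held 2 of them, in 1 list each.

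With lists held to 1977 peaks the balance between gain and loss changed. Among 3880 regions in at least 2 of these lists, 129 were more often in the D538G lists (3.32% of those tested) and 109 less often (2.81%) at an unadjusted Fisher p under 0.05, so 54.2% of the 238 were gained. The 238 are a share of the 3880 close to the threshold of 0.05 itself. No region passed after adjustment (smallest adjusted p = 0.313). Complete separation held for 36 regions in all 6 D538G and no wild-type list, and for 23 in all 4 wild-type and no D538G list. These 59 fall short of the 9.52% of tested regions that the adjusted test needs here too.

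Most of these regions had a peak in lists of both genotypes at full length. Of the 129 regions more often among the strongest D538G peaks, 79 had a peak in all 4 full wild-type lists and 7 in none. Of the 109 less often there, 1 had no peak in any full D538G list. The overlap with the calls at full length was small. The 10 gains in both sets were 8.62% of the 116 and 7.75% of the 129, and the 2 shared losses were 0.629% of the 318 and 1.83% of the 109.

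The equal-length counts without the Ctl-named list were 198 gains and 135 losses, and these included all 129 and all 109. Leaving out D538G clone 3 replicate 2 gave 212 and 167. Losses came to 72 without wild-type clone 1 replicate 1 and to 70 without wild-type clone 2 replicate 2. Within either replicate number both counts were 0, since no p could pass there.

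The 1112 regions in all 10 lists could be compared by rank without any list lacking a peak. Limma on normal scores of the ranks placed 56 regions higher in D538G (5.04% of those tested) and 41 lower (3.69%), at a Benjamini-Hochberg adjusted p under 0.05. Most regions differed little: the median absolute difference between mean percentiles was 14.9 points over all regions, 806 regions (72.5%) differed by under 25 points, and the median among the 97 that passed was 45.7 points. All 6 D538G lists lay above all 4 wild-type lists in 59 regions and below them in 52. Of these, 43 and 36 were among those that passed.

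**Figure D2:**
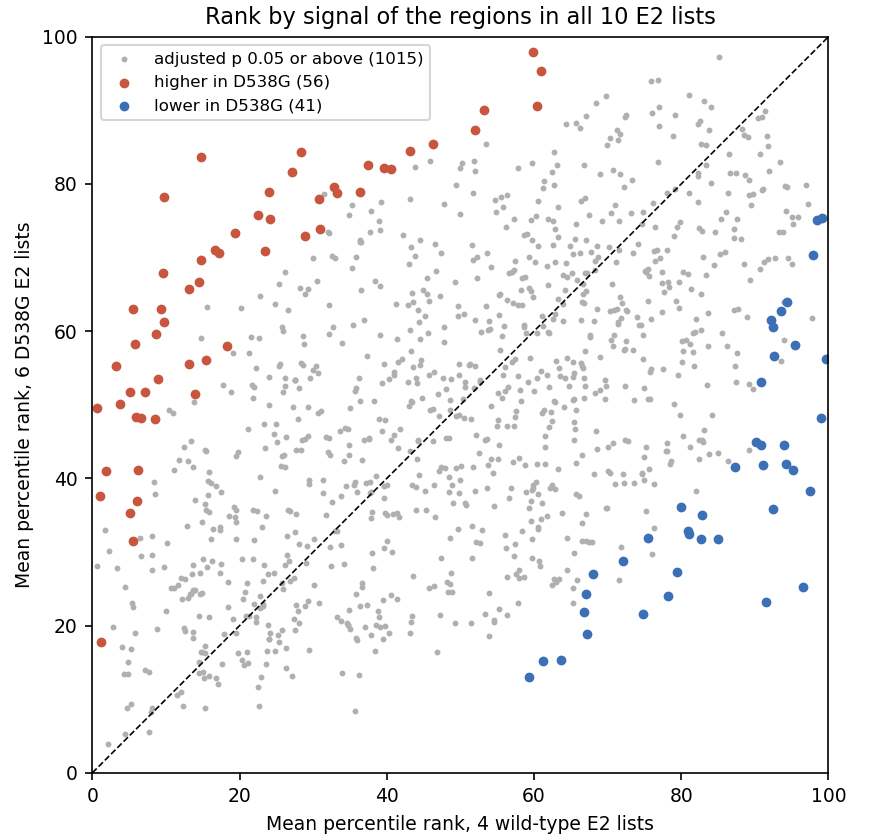
Mean percentile rank by signal, among the regions in all 10 lists, in the 4 wild-type E2 lists (horizontal) and in the 6 D538G E2 lists (vertical) for each of these 1112 regions, with 1 point per region and a dashed line of equal rank. The 56 regions ranked higher in D538G lie above the line and the 41 ranked lower below it, among 1015 that did not pass.

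The counts depended on how the libraries were treated as units. An exact permutation test per region left no region after adjustment (smallest adjusted p = 0.0883), with 142 higher and 122 lower at an unadjusted p under 0.05. With clone means as the units, 1 region remained in each direction. In all 56 and all 41 the 3 D538G clone means lay on one side of both wild-type means. These regions were chosen by the same ranks, so that order largely follows from the choice and adds no evidence. Within replicate number 1 there were 9 higher and 6 lower, and within replicate number 2 there were 0 and 0.

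Leaving out single lists gave 10 to 78 higher and 10 to 59 lower. The counts fell to 18 and 14 without wild-type clone 1 replicate 1, 21 and 15 without wild-type clone 1 replicate 2, and 21 and 22 without wild-type clone 2 replicate 1. They fell to 10 and 10 without wild-type clone 2 replicate 2 and to 15 and 12 without D538G clone 1 replicate 1, and the lower count fell to 23 without D538G clone 1 replicate 2. The counts were 56 and 38 without the Ctl-named list, of which 49 and 35 were also found with it.

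Sites that ranked higher with the mutant receptor were in the lower part of the core in wild type and above its middle in D538G. Among the 1112 core regions the median percentile of the 56 was 7.78 to 17.5 in the 4 wild-type lists and 55.7 to 81.0 in the 6 D538G lists, values that the fit itself chose. Within the whole lists, where most core regions stand high, the same sites had medians of 56.3 to 76.4 in wild type and 82.1 to 98.5 in D538G. At chr3:123381545-123383244, a region of 1700 bp, the wild-type percentiles were 1.08 and 0.315 for clone 1, replicates 1 and 2, and 1.03 and 0.225 for clone 2, and the D538G values were lowest 21, median 48.4 and highest 74.8. In wild type it was among the lowest of the core, at percentiles of 7.56 to 18.8 of the whole lists, and the groups did not overlap. The difference in normal score was 2.53 ± 0.37 (SE; limma, Benjamini-Hochberg adjusted p = 0.000772). chr4:154098830-154099795 had 13.1, 27.1, 11.7 and 7.15 in the wild-type lists, in the same order, and in D538G lowest 69.8, median 86.2 and highest 93. The groups did not overlap, with a difference of 2.15 ± 0.35 (SE; limma, Benjamini-Hochberg adjusted p = 0.00216). In the whole wild-type lists this region stood at percentiles of 46.4 to 86.6.

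chr8:22594910-22597584 differed from the others in level, standing above the middle of the core with both receptors. Its wild-type percentiles were 53.5, 64.4, 65.4 and 56.2 and its D538G percentiles 99.6, 99.1, 94.4, 95.5, 99.9 and 99.1, among the strongest of every mutant list. The score differed by 2.04 ± 0.37 (SE; limma, Benjamini-Hochberg adjusted p = 0.00438). At chr2:11655122-11656498 wild type had 13.6, 17.8, 4.63 and 2.83, and D538G had lowest 37.3, median 86.9 and highest 99, with a difference of 2.41 ± 0.45 (SE; limma, Benjamini-Hochberg adjusted p = 0.00517). This region lay 25.2 kb from chr2:11628036-11629902, the region described above that every D538G list and no wild-type list held.

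The 4 further regions were chr17:71406548-71407859, chr11:117701398-117702627, chr5:168507557-168509229 and chr3:118925363-118926297. Their score differences were 1.93, 1.95, 2.36 and 1.76, with limma adjusted p from 0.00602 to 0.00842. The groups did not overlap at any of the 8, and the narrowest gap was at the seventh, between a D538G value of 17.4 and a wild-type value of 10.2. Without the Ctl-named list the 8 had limma adjusted p from 0.000959 to 0.0147. Taking clone means as the units, only the first described of the 8 stayed under 0.05 (limma, adjusted p = 0.0418). The others then had limma adjusted p from 0.0805 to 0.0964. Every one of the 8 also lost its call in some other alternative.

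Sites that ranked lower with the mutant receptor stood near the top of the wild-type lists. The median percentile of the 41 was 87.8 to 93.0 in wild type and 26.7 to 49.96 in D538G, again among the core regions and as the fit chose them. Within the whole lists the medians were 97.0 to 99.4 in wild type and 36.9 to 97.9 in D538G, where the shortest list gave the lowest. At chr1:1006878-1010970, a region of 4093 bp, wild type had percentiles of 99.9 and 99.8 for clone 1, replicates 1 and 2, and 99.1 and 99.9 for clone 2, and D538G had lowest 39.2, median 47.5 and highest 84.4. Every wild-type list had it within the top 1% of the core and no D538G list did, a difference of -2.64 ± 0.37 (SE; limma, Benjamini-Hochberg adjusted p = 0.000772). The region chr1:854644-861978 had 97.3, 99.8, 90.7 and 98.5 in wild type and in D538G lowest 5.76, median 23.3 and highest 51.7. Its difference was -2.87 ± 0.42 (SE; limma, Benjamini-Hochberg adjusted p = 0.000772). Another region of the same stretch, chr1:1071119-1073608, had 95.6, 98.6, 74 and 97.9 in wild type and in D538G lowest 1.75, median 13.4 and highest 59.2, with a difference of -2.64 ± 0.48 (SE; limma, Benjamini-Hochberg adjusted p = 0.00439). Gaps of 145 kb and 60.1 kb separate these 3 regions of chromosome 1, so they are neighbours and not independent examples.

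On chromosome 9, chr9:137229362-137231549 had 99.3, 98.7, 99.5 and 98.4 in wild type and in D538G lowest 17.9, median 50.4 and highest 70.2, a difference of -2.41 ± 0.36 (SE; limma, Benjamini-Hochberg adjusted p = 0.000772). The remaining 4 were chr10:80908286-80911997, chr13:113621958-113624191, chrX:153877202-153878805 and chr9:139651271-139653303. They had score differences of -1.92, -2.44, -1.69 and -2.14, with limma adjusted p from 0.00438 to 0.00842. At none of the 8 did the groups overlap. Without the Ctl-named list their limma adjusted p ran from 0.000959 to 0.0136. Here too, with clone means as the units, only the first described of the 8 stayed under 0.05 (limma, adjusted p = 0.0418). The others then had limma adjusted p from 0.0572 to 0.0964. Each of the 8 also lost its call in some other alternative.

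**Figure D3:**
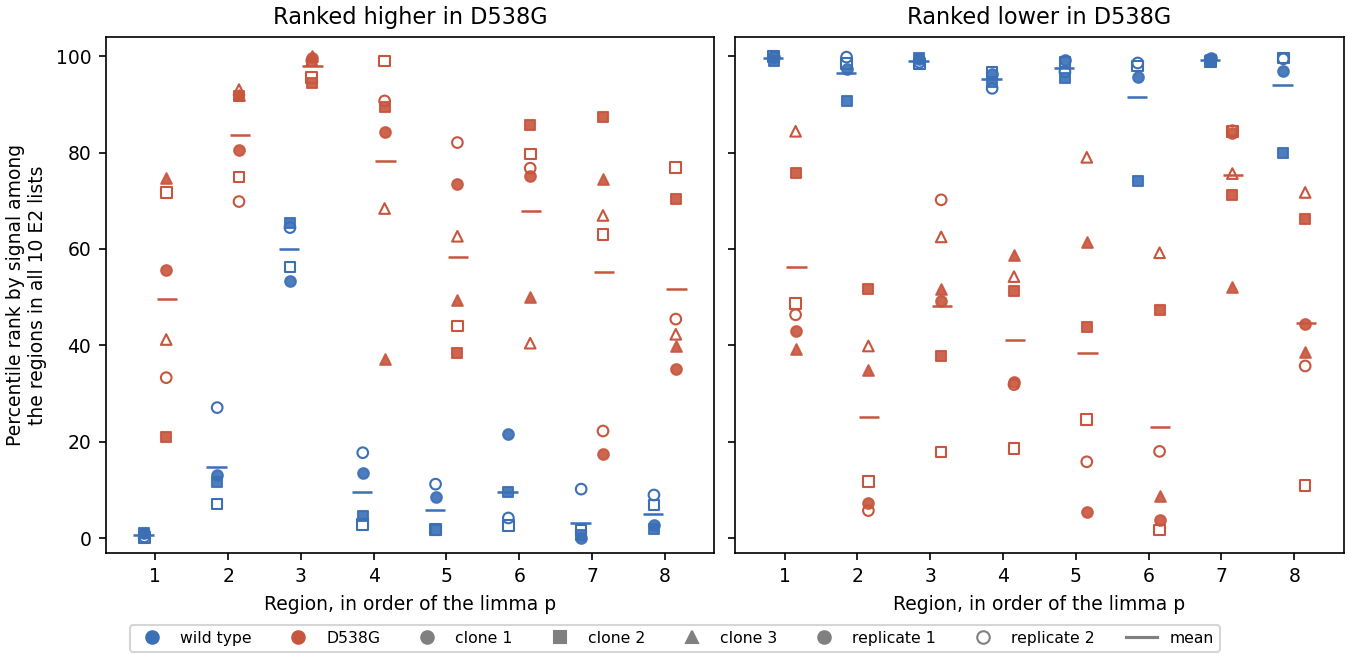
Percentile rank by signal within each E2 list, among the 1112 regions in all 10 lists, for the 8 regions with the smallest limma p in each direction, with wild type in blue, D538G in red, a symbol per clone, filled for replicate 1 and open for replicate 2, and a line at each mean. On the left the wild-type values lie below 30 except at 1 region, and on the right they lie above 70, while the D538G values spread widely without crossing them.

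With absent regions placed at 0, percentile ranks in the equal-length lists separated 95 of 3880 regions upward (2.45%) and 67 downward (1.73%) in D538G (limma, Benjamini-Hochberg adjusted p under 0.05). A region entered this fit through any 2 lists, so many entered through the group in which they are strong. Of the 95, 35 were also among the 56 above (36.8% of the 95, 62.5% of the 56), and of the 67, 11 were among the 41 (16.4% and 26.8%). Leaving out the Ctl-named list gave 86 and 57, of which 70 and 50 were also found with it. Within replicate number 1 there were 36 and 161, and within replicate number 2 there were 121 and 521, where many regions are tied at 0. The counts were 57 and 40 without wild-type clone 1 replicate 2, 58 and 43 without wild-type clone 2 replicate 2, and 41 and 40 lower without replicates 1 and 2 of D538G clone 1.

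The region that topped this comparison, chr9:138270156-138273124, is the one with the strongest peaks among those that no wild-type list held. It was at 0 in all 4 wild-type lists and at 85.8, 94.3, 98.7, 80.4, 99.7 and 99.9 in the D538G lists (clone 1 replicates 1 and 2, then clones 2 and 3). It entered this fit through the D538G lists alone, so its difference of 93.2 points is given with no test. chr4:154098830-154099795, described above, was also at 0 in all wild-type lists of equal length and had in D538G lowest 79.1, median 90.7 and highest 95.6. chr2:98371810-98372788 had a peak in 2 full wild-type lists, none among their 1977 strongest, and in D538G lowest 70.4, median 82.6 and highest 96.3. The last 2, chr10:73096541-73097950 and chr2:217720054-217721299, each entered 1 wild-type list, at percentiles of 3.68 and 2.15. Their differences were 83.3 and 65.4 points.

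In the other direction chr3:79979039-79980095 stood at 76.4 and 91.2 for clone 1, replicates 1 and 2, and 78 and 86.6 for clone 2, and at 0 in all 6 D538G lists. It entered through the wild-type lists alone, and its difference of -83 points is likewise given with no test. Its peak was present in 5 of the 6 full D538G lists, below their 1977 strongest. chr14:77390516-77391801 had 99.1, 86.2, 82.4 and 70.5 in wild type and 0 in all D538G lists, 3 of which held a weaker peak. chr9:97400769-97402320, chr19:56180659-56182705 and chr19:607772-611758 each entered 1 D538G list, at 21.4, 2.77 and 20.1, against wild-type means of 92.9 ± 9.26, 74 ± 7.43 and 79.6 ± 10.3 (SD, n = 4). Of these, chr19:56180659-56182705 also had a peak in all 6 D538G and all 4 wild-type DMSO lists, even in those with 51 and 45 peaks in all. The region at the head of this set lay 8.92 kb from chr3:79989019-79989743, which no D538G list held at any length.

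Lists of one genotype overlapped more than lists of different genotype, by an amount that did not pass after adjustment. Similarity was measured by the overlap coefficient at equal length, the number of regions in both lists over the number in the smaller. It averaged 0.587 ± 0.0987 (SD, 15 pairs) within D538G, 0.542 ± 0.202 (SD, 6 pairs) within wild type and 0.465 ± 0.106 (SD, 24 pairs) between genotypes. Pairs of one genotype exceeded pairs of different genotype by 0.109 (exact permutation test of genotype over the 10 libraries, two-sided, p = 0.019, adjusted p = 0.057 over 3 library-level tests). Leaving out single lists gave 0.0898 to 0.14. Every list had its nearest neighbour within its own genotype, but wild-type clone 2 replicate 1 had a lower mean overlap with the other wild-type lists (0.532) than with the D538G lists (0.537). Without the Ctl-named list the difference was 0.115 (exact permutation p = 0.0476, unadjusted), and within replicate numbers 1 and 2 it was 0.100 and 0.207 (exact permutation p = 0.2 for each, where 0.1 is the smallest possible).

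The lists also grouped by replicate number and by length. In wild type the 2 clones shared 0.802 of regions in replicate 1 and 0.798 in replicate 2, but the pairs with different replicate numbers shared 0.370 to 0.444. Both wild-type replicate 1 lists overlapped every D538G list more than that, at 0.460 to 0.609. The 4 longest lists, both wild-type replicate 2 lists and those of D538G clone 2 replicate 1 and clone 3 replicate 2, stood close in their ranks across genotypes. Over the 1112 regions, correlations between the ranks of a wild-type and a D538G list of these 4 were 0.531 to 0.683, and those of the wild-type replicate 2 lists with D538G clone 1 and with clone 2 replicate 2 were -0.0219 to 0.112. These are descriptions over regions that share the same libraries. The part of list length in the rank differences was not tested beyond a fit with log10 peak number as a term, which gave 113 regions higher and 103 lower.

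**Figure D4:**
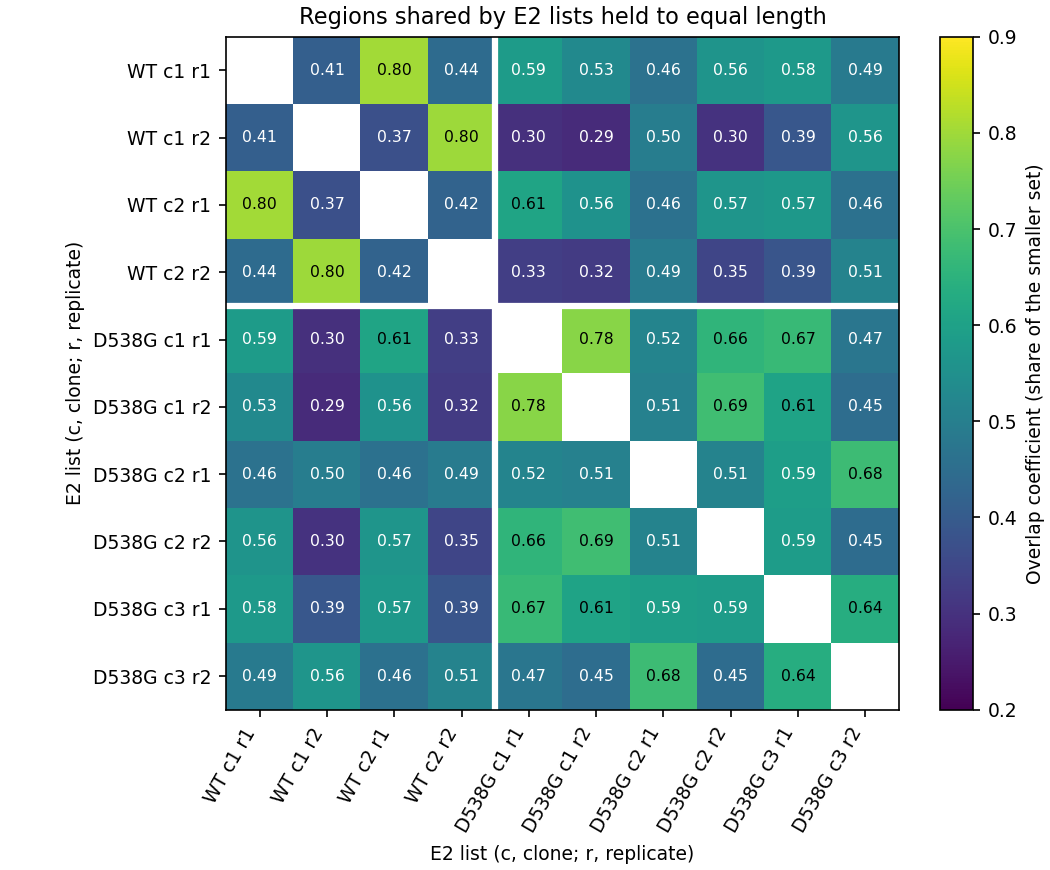
Overlap coefficient between each pair of E2 lists held to their 1977 strongest peaks, with wild type above and left of the white lines and D538G below and right. The wild-type lists of equal replicate number reach 0.80, whereas wild-type clone 1 replicate 2 and D538G clone 1 share 0.29 to 0.30.

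Peak widths overlapped between the genotypes. The median width of the 1977 strongest peaks was 594, 1303, 527 and 1052 bp in the wild-type lists (clone 1 replicates 1 and 2, then clone 2), and in D538G lowest 354, median 771 and highest 993 bp. The values overlapped throughout, and the difference of -119 bp was within the spread (exact permutation test, two-sided, p = 0.543, adjusted p = 0.776 over 3 tests). It was 257 bp within replicate number 1, -495 bp within replicate number 2 and 25.7 bp without wild-type clone 1 replicate 2. It was -136 bp without the Ctl-named list (exact permutation p = 0.524, unadjusted).

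The DMSO lists gave a readout that had not entered the ranks. Of the 56 regions higher in D538G with E2, 39 (69.6%) had a peak in all 6 D538G DMSO lists and 11 (19.6%) had one in any wild-type DMSO list. Of the 41 lower regions the numbers were 19 (46.3%) and 38 (92.7%), and over all 1112 regions they were 659 (59.3%) and 656 (59.0%). Sites ranked higher with the mutant receptor under E2 thus had few peaks in wild-type cells in solvent, and nearly all of those ranked lower had one. The fit had placed the 56 low and the 41 high in the wild-type E2 lists of the same clones. No regions matched on wild-type rank were compared, so these shares are not independent of that choice. Without the Ctl-named list, 8 of the 56 higher regions (14.3%) and 36 of the 38 lower regions (94.7%) had a peak in a wild-type DMSO list.

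The wild-type part of this readout rests mostly on 2 lists. Wild-type replicate 1 DMSO lists held 51 and 45 peaks in all and 27 of the 1112 regions each, among them 1 of the 56 and 3 of the 41. Wild-type clone 1 replicate 2 DMSO, with 29118 peaks, held 11 of the 56 and 36 of the 41. Wild-type clone 2 replicate 2 DMSO, with 1080 peaks, held 5 and 36. The shares in these 2 lists were 19.6% and 87.8%, and 8.93% and 87.8%, beside 56.4% and 40.3% of all 1112 regions.

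Ranks in the D538G DMSO lists went the same way as with E2 in 5 of 6 lists. Among the core regions that each list held, the 56 higher regions had median percentiles of 70.2 and 68.1 in replicates 1 and 2 of clone 1, 79.4 and 45.3 in those of clone 2, and 77.6 and 59.4 in clone 3. The 41 lower regions had 39.9 and 45.8, 17.8 and 45.6, and 30.1 and 21.9. The exception was clone 2 replicate 2 DMSO, the longest DMSO list with 54903 peaks, in which the 2 sets stood level. The widest gap, 79.4 against 17.8, was in clone 2 replicate 1 DMSO, of the same clone and replicate number as the Ctl-named E2 list. Whether the labels of these 2 lists were exchanged was not tested, and this DMSO list also enters the counts over all 6 D538G DMSO lists. In wild-type DMSO the order was the opposite, where the replicate 2 lists had 43.1 and 71.6 for clone 1 and 55.2 and 79.3 for clone 2. The E2 and DMSO lists come from the same clones, so the receptor and the clones cannot be told apart in them.

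**Figure D5:**
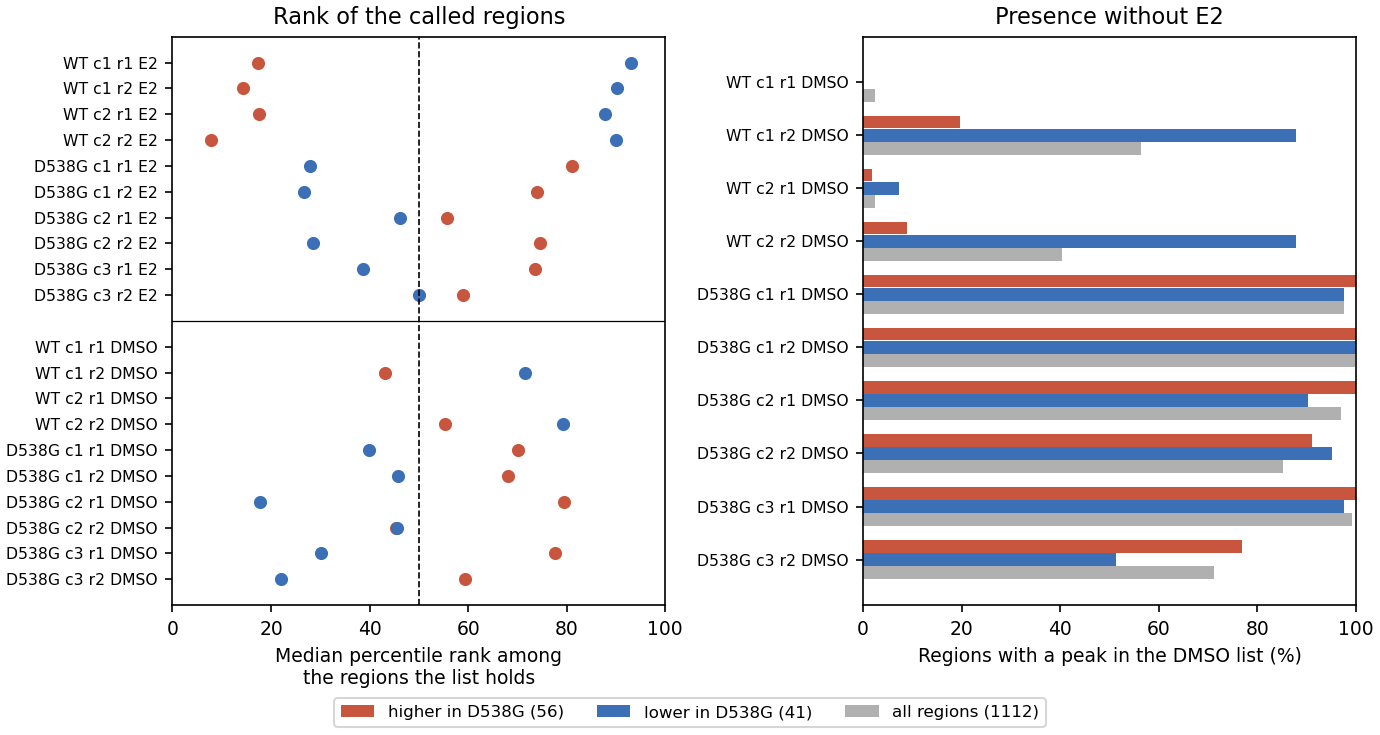
Left, median percentile rank by signal of the 56 regions higher (red) and the 41 regions lower (blue) in D538G with E2, within each E2 list (above the line) and each DMSO list (below it), among the core regions the list holds, with a dashed line at 50 and no points for 2 lists that hold 27 core regions. Right, the percentage of each set and of all 1112 regions with a peak in each DMSO list. The wild-type DMSO lists of replicate 2 held 87.8% of the lower set and 8.93% to 19.6% of the higher set.

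For sites decided by presence the DMSO lists differed by direction as well. All 116 gained regions at full length had a peak in at least 1 D538G DMSO list and 4 (3.45%) in a wild-type one, and 109 (94.0%) had one in at least 2 D538G DMSO lists. Of the 318 lost regions, 64 (20.1%) had a peak in a D538G DMSO list and 10 (3.14%) in a wild-type one. Over all 35729 regions tested the shares were 85.1% for at least 1 D538G DMSO list, 64.6% for at least 2 and 53.6% for a wild-type one. The gained sites thus had peaks in mutant lists without hormone, and few lost sites had one in DMSO lists of either genotype. Both sets were chosen by presence in E2 lists of the same clones, and no matched regions were compared. At equal length, 45 of 129 gains (34.9%) and 84 of 109 losses (77.1%) had a peak in a wild-type DMSO list, against 56.2% of the 3880 tested. These wild-type shares rest mostly on 1 list, clone 1 replicate 2 DMSO. At full length it held 19041 of the 19142 tested regions with a wild-type DMSO peak, all 4 gains and 6 of the 10 losses. At equal length it held 2117 of 2181 such regions, all 45 gains and 83 of the 84 losses. Without the Ctl-named list the numbers in a wild-type DMSO list were 4 of 168 gains and 16 of 344 losses at full length, and 49 of 198 gains and 110 of 135 losses at equal length.

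The sites of the core that ranked lower were wide, and many lay toward chromosome ends. Their median width was 2188 bp, against 1304 bp for the higher set and 1498 bp for all 1112 regions. Of the 41, 23 (56.1%) lay within 5 Mb of the outermost peak of their chromosome in any list, compared with 6 of 56 (10.7%) in the higher set and 225 of 1112 (20.2%) overall. Chromosome 19 held 6 of the 41 (14.6%) and chromosome 1 held 7 (17.1%), where all 1112 regions had 4.23% and 10.4% there. In the ranks at equal length, 24 of 67 lower regions (35.8%) and 11 of 95 higher regions (11.6%) lay within 5 Mb of an end, beside 22.3% of the 3880. Presence at equal length went the same way, with 33 of 109 lost regions (30.3%) and 18 of 129 gained regions (14.0%) there. The sets by presence at full length did not share this: 29 of 318 lost regions (9.12%) and 11 of 116 gained regions (9.48%) lay there, below the 20.8% of all 35729. This measure was chosen after the positions had been seen, and no test is given. Without the Ctl-named list the core counts were 18 of 38 lower and 7 of 56 higher.

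Individual lists differed in the same measure. Of the regions of the equal-length lists, 19.1% and 37.4% lay within 5 Mb of an end in wild-type clone 1 (replicates 1 and 2) and 15.7% and 33.5% in wild-type clone 2. In D538G the lowest value was 14.5%, the median 18.4% and the highest 30.1%, so the genotypes overlapped. The 4 longest lists had 26.4% to 37.4% and the other 6 had 14.5% to 20.9%. The part of this difference between lists in the set of lower-ranked sites was not tested.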

How the data were processed

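The 20 peak lists of the anti-FLAG ChIP-seq libraries were used as deposited, 1 per library, and the 2 input samples were not analysed here. Per the submitters' processing notes the build is hg19 (GRCh37), and Bowtie, MACS2 and DESeq2 are named, with no role or version. The authors deposited for each peak a signal value (column 7), whose reference is not given in the sources used here, and a −log10 p, at least 10.08 in the E2 lists. No read depth is given in them. Pooling and peak-calling settings are not given in the sources used here.

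Regions were made by joining peaks of the 20 lists with 1 bp or more in common, in Python 3.11.15, numpy 2.4.6 and pandas 2.3.3, checked against bedtools 2.31.1. Presence was tested per region by Fisher's exact test (scipy 1.17.1). Ranks by the highest signal in a region were tested with limma 3.58.1 in R 4.3.3, as normal scores over regions in all 10 E2 lists, and as percentiles in lists of 1977 peaks with absent regions at 0. Library values were tested by exact permutation. All p-values were two-sided. Those called adjusted are by Benjamini-Hochberg, with a threshold of 0.05, and the others are unadjusted. The gained and lost sets were taken at an unadjusted Fisher p under 0.05. Scripts were tested on made-up data with known answers. Mitochondrial peaks were set aside.

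The regions named are the 8 with the smallest limma p in each direction among those in all 10 lists, the 5 in each direction by Fisher's test (ties broken by mean rank), the 5 in each direction at equal length, and the 3 of highest mean rank. The regions, lists and tests were chosen with earlier results of these data known. No hg19 genome or annotation was used here, so no genes or sequences are given. Alternatives left out each list, added replicate number as a block, used clones as units, and changed the ranking value, list length, threshold, merging and filters.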

Additional observations from a re-analysis of the deposited data

Results flagged for a closer look

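Peaks on the mitochondrial genome were outside the comparison. The E2 list of D538G clone 1 replicate 2 held 1 such peak and that of D538G clone 2 replicate 2 held 2, while the 4 wild-type E2 lists held 0. These 2 lists were the shortest of the D538G lists, with 6542 and 1977 nuclear peaks.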

How the results depend on the processing

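Of 259 alternatives to the main counts and library differences, 175 kept them and 0 reversed a direction that had passed a test. The differences in log10 peak number and in width, which had not passed, changed sign in the 6 that moved. In 58 a count or a test was weaker, in 20 it was stronger, and in 6 a library difference moved. For the named regions ranked by limma, 472 of 520 kept their call and 48 lost it. Those named by presence or as reference were not among them. In the core, 139 of 160 kept it for the higher regions and 136 of 160 for the lower. At equal length 99 of 100 and 98 of 100 did, where the group of lower rank stood at or near 0 and several regions entered through 1 group alone.

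Neither the labels nor the data showed that replicate numbers pair the libraries across genotypes: the correlation of deviations was -0.079, a single value, since with 2 numbers the deviations mirror each other. With replicate number as a block, presence gave 16 more and 181 fewer at full length and 69 and 72 at equal length, where the balance turned to loss, and the ranks gave 61 and 46 and, at equal length, 97 and 86. The block changed no other call. Leaving out single lists gave, for presence, 109 to 532 more and 214 to 829 fewer at full length and 100 to 212 and 70 to 167 at equal length. For ranks it gave 10 to 78 higher and 10 to 59 lower, and at equal length 57 to 103 and 40 to 97. The library differences ran from -0.228 to 0.0700 in log10 peak number, from -233 to 25.7 bp in width and from 0.0898 to 0.14 in overlap.

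Without both lists with Input in their peak names, presence gave 11 and 88, and at equal length 55 and 27. The ranks then gave 13 and 11, and at equal length 61 and 33, and overlap gave 0.0914. With clones as units the ranks gave 1 and 1 and overlap gave 0.116. With clone as a random block 24 regions were lower, and 114 at equal length. The exact permutation test per region gave 0 and 0. Ranks over regions in at least 9 of 10 lists gave 102 and 85. With 1000 peaks per list, presence gave 85 and 71 and ranks 48 higher. With 5000 and no shorter list, presence gave 423 and 180, ranks 193 higher and overlap 0.0804. Overlap at full length was 0.0478.

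Chosen after seeing the data were the fits within a replicate number, with log10 peak number as a term, and over the 9 longer lists. Within numbers 1 and 2, presence gave 0 in each direction at either length, ranks gave 9 and 6, then 0 and 0, and at equal length 36 and 161, then 121 and 521. Overlap was 0.100 and 0.207, and within number 1 log10 peak number differed by 0.408 and width by 257 bp. With the length term the ranks gave 113 and 103, and 108 lower at equal length. The causes of these shifts were not tested. Motif shares, with their alternatives, and target loci were not run, for want of an hg19 genome here. Precision is limited by 6 and 4 lists, 3 and 2 clones and unknown depth.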
